A study of Mus musculus with 61 samples.

Results

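Sox transcription factors other than Sox9 were followed in reprogrammed mouse pancreatic ductal organoids. The 8 genes Sox2, Sox4, Sox5, Sox6, Sox11, Sox13, Sox17 and Sox21 were listed by name and not by their values. They belong to 20 Sox genes found in a count table of 46078 genes. All 8 passed the filter on low counts that left 24004 genes for testing.

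Sox proteins share an HMG box, a domain that binds the minor groove of DNA and bends it, and are sorted into groups by its sequence. The SoxB1 factor Sox2 maintains pluripotent and neural progenitors and marks foregut and stomach epithelium, and the SoxB2 factor Sox21 is a close relative that acts mainly as a repressor. The SoxC factors Sox4 and Sox11 act in differentiating neurons, and Sox4 is required for normal islet formation in the mouse. The SoxD factors Sox5, Sox6 and Sox13 lack a known activation domain of their own, and Sox5 and Sox6 work with Sox9 in cartilage. The SoxF factor Sox17 acts in definitive endoderm, in the choice between biliary and pancreatic fate, and in endothelium. Sox9, the factor left aside here, is the Sox factor of the adult pancreatic duct.

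The cells came from adult C57BL/6 pancreatic ducts grown as organoids and infected with lentiviral vectors for a doxycycline transactivator, GFP-Ngn3, LSSOrange-Pdx1 and tdTomato-MafA. After 8 days of doxycycline, pools of 50 cells were sorted by reporter into cells with Pdx1, with MafA or with both, and cells with Ngn3 added to each of these. Each of the 6 combinations was sorted from cultures that received either wild-type Ngn3 (WT) or a phospho-mutant form whose serines at Cdk target sites are alanines (6SA), giving 12 conditions of 2 or 3 samples. Cells without the Ngn3 reporter came from cultures that had also been infected with Ngn3, and they carried Pdx1, MafA or both, so they are not untreated ducts. Replicates 1 and 2 were at passage 2 and replicate 3 at passage 5. The labels number biological replicates without saying whether they came from separate animals, so p-values measure only the spread between these samples.

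Of 61 libraries, 58 had over 1000000 gene counts and were summed over technical repeats into 32 samples of 2579583 to 19461008 counts (median 8490758.5). Levels are counts per 1000000 gene counts (CPM), scaled by TMM, and 3 counts corresponded to 0.136 to 1.01 CPM, a limit that covers counting error only. Neurog3, the gene of Ngn3, had 7.87 to 329 CPM in the 17 samples labelled with it and at most 0.787 CPM in the 15 others. Pdx1 overlapped between labels, at 9.84 to 191 CPM in 21 samples and 3.21 to 30.6 CPM in 11. Mafa ranged from 0 to 12.7 CPM in 22 labelled samples and reached at most 0.116 CPM in 10 others. All 15 duct markers had counts in both sets of cells.

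The proximal promoters of the SoxC genes are shown because Ngn3 is a basic helix-loop-helix factor, a class that binds E-boxes (CANNTG), and because Sox4 and Sox11 are the members tied to endocrine differentiation. They are the 250 bases before the RefSeq start on GRCm38.p6, both on the minus strand, with E-boxes in capitals. The Sox4 window (chr13:28953700-28953949) held 1 E-box, CAGCTG, and the Sox11 window (chr12:27342719-27342968) held 2, CAGCTG and CATATG.
Sox4: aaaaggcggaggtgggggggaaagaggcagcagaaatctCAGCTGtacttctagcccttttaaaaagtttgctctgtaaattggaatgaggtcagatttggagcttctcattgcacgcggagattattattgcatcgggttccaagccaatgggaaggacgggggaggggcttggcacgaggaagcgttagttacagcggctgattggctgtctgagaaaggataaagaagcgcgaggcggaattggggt
Sox11: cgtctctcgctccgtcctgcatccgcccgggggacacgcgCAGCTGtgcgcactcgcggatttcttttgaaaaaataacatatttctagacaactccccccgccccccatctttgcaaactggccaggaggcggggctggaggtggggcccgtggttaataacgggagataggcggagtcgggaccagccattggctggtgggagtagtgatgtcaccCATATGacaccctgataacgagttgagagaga
CANNTG reads the same on both strands. Of 32851 promoter windows of this length, 66.2% held a CANNTG, 13.0% a CAGCTG and 3.46% a CATATG. The windows of Sox2, Sox5, Sox13 and Sox21 held 0, and each of the windows at the 6 listed starts of Sox6 held 1 to 3. A match of letters is a description and not a bound site. In all, 7 of the 8 genes were matched to the RefSeq promoter table.

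Per kilobase of exon, Sox4 had the highest median level of the 8 genes over all 32 samples, at 8.06 CPM per kb, followed by Sox11 at 2.99 and Sox13 at 1.93. Sox21 had 0.951 CPM per kb and Sox17 0.140. Sox6 and Sox5, whose genes have long transcripts, had 0.0466 and 0.0200. Sox2 had a median of 0. Sox9, on the same scale, had 34.4 CPM per kb. Sox4, Sox5, Sox17 and Sox21 share exon bases with genes on the opposite strand, and whether counting used strand is not given in the sources used here. Over unshared exon bases the levels were 17.7 CPM per kb for Sox4, 1.17 for Sox21, 0.168 for Sox17 and 0.0221 for Sox5, in the same order.

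Sox17 was lower in cells with Ngn3. In cells without Ngn3 it had 0.270 and 1.96 CPM in the 2 samples of WT Pdx1 cells and 0.840 and 12.3 CPM in those of 6SA Pdx1 cells. It had 0.643 and 11.4 CPM in WT MafA cells, and 0.692, 14.3 and 1.32 CPM in 6SA MafA cells. Cells with both factors had 0.689, 3.14 and 12.9 CPM in WT cultures and 0.412, 5.06 and 15.7 CPM in 6SA cultures. All 15 samples without Ngn3 therefore had Sox17 counts, from 0.270 to 15.7 CPM (median 1.96), at 3 counts or more in each. With Ngn3, WT cells beside Pdx1 had 0, 0 and 1.48 CPM, beside MafA 0 in all 3 samples, and beside both 0.243, 0 and 0 CPM. The 6SA cells had 0.0453, 1.98 and 0 CPM beside Pdx1, 0.244, 0 and 1.07 CPM beside MafA, and 0.407 and 7.12 CPM beside both. Counts were present in 8 of the 17 samples with Ngn3, whose median was 0. The ranges overlapped, with 6SA Ngn3+Pdx1+MafA replicate 2 the highest of the Ngn3 samples. In bulk pools, fewer cells with a transcript and less of it per cell cannot be told apart.

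**Figure D1:**
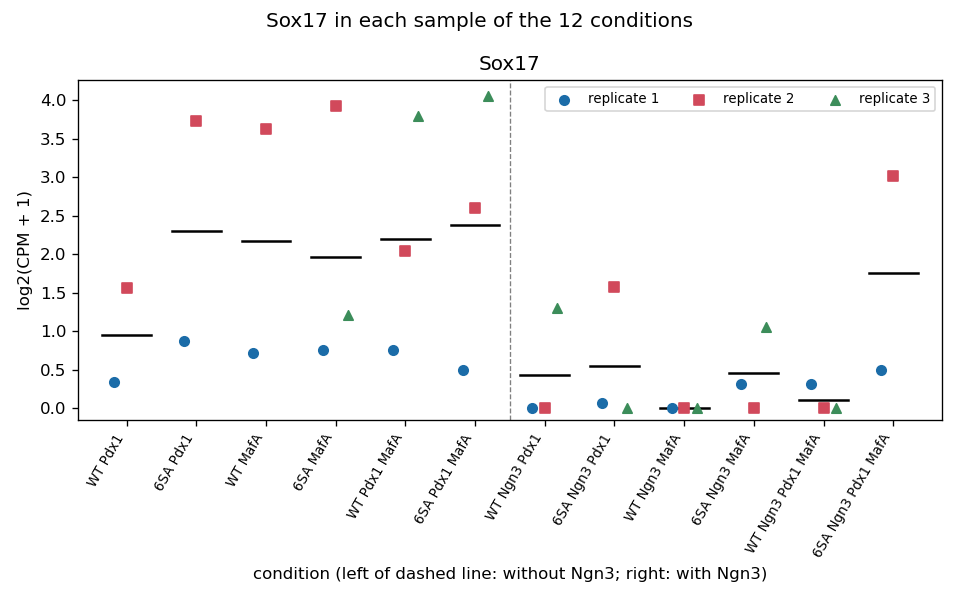
Sox17 in each of the 32 samples as log2(CPM + 1), by condition, with the replicates as symbols and a black bar at the mean of the log values. All 15 samples without Ngn3, left of the dashed line, lie above 0, and the 3 WT Ngn3+MafA samples lie at 0.

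Over the 3 backgrounds and both cultures, Sox17 fell by 3.90 on the log2 scale with Ngn3 (SE 0.90, 95% interval -5.67 to -2.14, adjusted p = 0.00212 by edgeR's quasi-likelihood test with Benjamini-Hochberg adjustment over all genes tested). It was the 1 member called of 8, against 21.5% of all genes called and 10.5% called lower. DESeq2 gave -3.78 (adjusted p = 4.98e-05). As means of CPM, it was 0.740 ± 1.75 with Ngn3 (SD, n = 17) and 5.44 ± 5.96 without (SD, n = 15), 7.35-fold lower. The fitted value depends on the prior count, because WT Ngn3+MafA cells had 0 counts. Without replicate 2 the call was lost (-3.23, adjusted p = 0.0891). At passage 2 alone the value was -4.49 (adjusted p = 0.00358). At passage 5 the 3 samples without Ngn3 had 1.32 to 15.7 CPM and the 5 with Ngn3 0 to 1.48 CPM, and these ranges overlapped.

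By background, Sox17 fell beside MafA (log2 fold change -6.26, SE 1.72, edgeR adjusted p = 0.0319), the 1 member called against 4.67% of all genes called and 2.17% called lower, and DESeq2 also called it (adjusted p = 0.00125). Its mean was at least 16.6-fold lower with WT Ngn3, set against 3 counts per summed sample, and 12.4-fold lower with 6SA Ngn3. The call beside MafA was lost without any 1 of 7 of the 11 samples compared: 6SA MafA replicate 2 (adjusted p = 0.11), WT MafA replicate 2 (0.216), 6SA Ngn3+MafA replicate 1 (0.0785) or 2 (0.0792), and each WT Ngn3+MafA sample (0.069 to 0.081). Without replicate 2 in all conditions it was -3.27 (adjusted p = 0.758). Beside Pdx1 the value was -2.16 (SE 1.42, adjusted p = 0.601, 1.49% of genes called), and the means were 2.26-fold lower in WT and 9.72-fold lower in 6SA cultures. Beside Pdx1 and MafA it was -3.29 (SE 1.49, adjusted p = 0.131, 17.8% of genes called), with a mean 1.88-fold lower in 6SA cultures. There it was called by edgeR without a gene filter (-3.265, adjusted p = 0.0138) and ranged from -4.91 to -1.60 with samples left out. WT Ngn3+Pdx1+MafA cells had 3 counts of Sox17 in 1 of 3 samples and 0 in the others, so that no fold is given. The test of unequal Ngn3 effects over the 3 backgrounds gave an adjusted p of 0.886 for Sox17, with 0.0333% of all genes called.

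In Ngn3 cells, Sox17 was 3.52 higher with 6SA than with WT Ngn3 on the log2 scale (SE 1.31), a difference with an unadjusted p of 0.0127 and an adjusted p of 0.78 that did not pass. In cells without Ngn3, the value for 6SA against WT cultures was 0.945 (SE 1.13, adjusted p = 1). The difference between these Ngn3 effects, 6SA minus WT, was 2.58 (SE 1.60, adjusted p = 1). Without a gene filter, 6SA against WT Ngn3 was called (adjusted p = 0.019), and over samples left out the value ranged from 1.12 to 5.31.

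Sox17 levels also went with the replicate number. Without Ngn3, the 6 samples of replicate 1 had 0.270 to 0.840 CPM and the 9 of replicates 2 and 3 had 1.32 to 15.7 CPM, with no overlap, which 2.46% of tested genes also showed in this direction. Whether technical repeats were separate sorted pools or repeat libraries of 1 pool is not given in the sources used here, so the spread between cells and the spread between preparations cannot be told apart. Among the 17 samples with several technical repeats, 8 had Sox17 at 0 in one repeat and at 3 counts or more in another, and in 6SA Pdx1+MafA replicate 2 the repeats had 0.309 and 7.43 CPM. The 9 endothelial markers summed to 1.45 to 33.5 CPM with Ngn3 (median 6.47) and 2.05 to 23.2 CPM without (median 5.36). Without Ngn3, 5 of the 9 had counts in some sample, and Cdh5, Kdr, Cldn5 and Erg were at 0 in all. Of the 9, 6 were tested and edgeR called 0 in this comparison. The part of these markers in the Sox17 difference was not tested. The genes whose log2(CPM + 1) went most closely with Sox17 over the 32 samples were Ak3 (Pearson's r = 0.799), Optn (0.762) and Rnf128 (0.743), given as a description over samples that share conditions and cultures.

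Sox4 varied widely within conditions, with low levels in replicate 1. Without Ngn3 it had 4.42 and 70.4 CPM in WT Pdx1 cells, 3.08 and 37.5 CPM in 6SA Pdx1 cells, 3.32 and 102.4 CPM in WT MafA cells, and 3.17, 49.1 and 39.5 CPM in 6SA MafA cells. Cells with Pdx1 and MafA had 4.90, 31.4 and 84.0 CPM in WT and 3.71, 41.9 and 40.7 CPM in 6SA cultures. In each of these conditions replicate 1, given first, was the lowest. With Ngn3 beside Pdx1 it had 4.85, 129.1 and 96.4 CPM (WT) and 2.81, 67.5 and 96.3 CPM (6SA), and beside MafA 4.19, 70.0 and 60.3 CPM (WT) and 9.53, 127.1 and 57.1 CPM (6SA). With all 3 factors it had 26.2, 37.7 and 130.8 CPM (WT) and 33.7 and 28.5 CPM (6SA).

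In the 10 conditions other than the 3-factor ones, the 10 samples of replicate 1 had 2.81 to 9.53 CPM of Sox4 (median 3.95) and the 17 of replicates 2 and 3 had 31.4 to 129.1 CPM (median 67.5), with no overlap. Such a separation in this direction was found for 1.15% of tested genes, among them Sox9. The 3-factor samples of replicate 1, at 26.2 and 33.7 CPM, lay above the other replicate 1 samples. The samples of replicate 1 were deeper, with 3 counts worth 0.136 to 0.321 CPM against 0.260 to 1.01 CPM in the others. In the same 10 conditions, 4.73% to 7.83% of reads per replicate 1 library were ambiguous between genes, with unaligned reads left out. In libraries of replicates 2 and 3 this share was 10.4% to 17.4%, with no overlap. The parts of depth and of ambiguous reads in this pattern were not tested. Sox4 was counted in every technical repeat, with a median fold between repeats of 2.06, and up to 11.1 in 6SA Ngn3+Pdx1+MafA replicate 1. Its closest genes over the samples were Scand1 (r = 0.951), Gm23935 (0.948) and Rala (0.945), and r with Sox9 was 0.844, all as descriptions over samples that share the replicate pattern.

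The mean of Sox4 was 57.8 ± 44.9 CPM with Ngn3 (SD, n = 17) and 34.6 ± 32.04 CPM without (SD, n = 15), and the ranges overlapped. The fitted difference was 0.70 on the log2 scale (SE 0.60, 95% interval -0.48 to 1.87, edgeR adjusted p = 0.539), so that a rise of up to 1.87 lies within its interval. With samples left out it ranged from 0.398, without replicate 1, to 2.145, without replicate 2. Beside Pdx1, MafA and both, the values were 1.25 (SE 1.11), 0.43 (SE 1.02) and 0.41 (SE 1.00), with adjusted p of 0.761, 1 and 0.885. In an edgeR fit blocked on replicate number, Sox4 was called higher for the mean effect (1.01, adjusted p = 0.00842) and beside Pdx1 and MafA (1.86, 0.00688). The labels do not say that the numbers pair the samples, though most same-numbered samples with and without Ngn3 correlated above 0. The unblocked fit leaves the spread by replicate number in its error. Condition means ran from 76.8 CPM in WT Ngn3+Pdx1 cells to 20.3 CPM in 6SA Pdx1 cells, and all 11 neighbours in this order overlapped. The values for 6SA against WT were -0.33 in Ngn3 cells (SE 0.81) and -0.72 in cells without Ngn3 (SE 0.87), with an adjusted p of 1 for both. Passage 5 against passage 2 gave 1.09 (SE 0.68, adjusted p = 0.305), and 3.66 (3.7e-06) without replicate 2, the comparison of replicate 3 with replicate 1 alone.

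Sox11, the other SoxC factor, was present in every sample, from 6.84 to 73.1 CPM (median 24.9). Without Ngn3 it had 39.1 and 31.6 CPM in WT Pdx1 cells, 27.3 and 16.2 CPM in 6SA Pdx1 cells, 30.5 and 33.6 CPM in WT MafA cells and 22.0, 25.1 and 7.64 CPM in 6SA MafA cells. Cells with Pdx1 and MafA had 73.1, 8.02 and 8.79 CPM in WT and 48.1, 23.0 and 11.6 CPM in 6SA cultures, where replicate 1 was the highest. With Ngn3 it had 31.5, 35.4 and 24.6 CPM (WT) and 23.1, 21.2 and 6.84 CPM (6SA) beside Pdx1, and 44.8, 40.3 and 18.3 CPM (WT) and 23.6, 43.6 and 37.9 CPM (6SA) beside MafA. The 3-factor cells had 45.5, 34.96 and 14.8 CPM (WT) and 17.6 and 9.12 CPM (6SA). Replicate 3 was the lowest of its condition in 6 of 8 conditions.

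**Figure D2:**
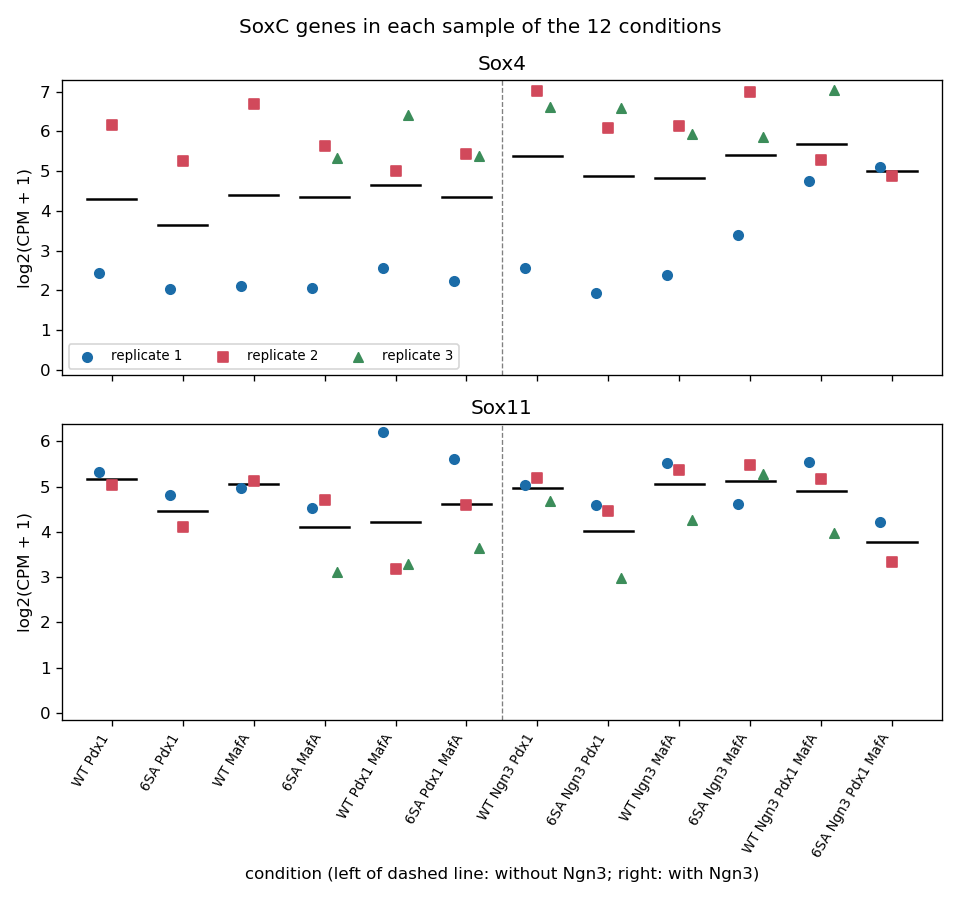
The SoxC genes Sox4 and Sox11 in each of the 32 samples as log2(CPM + 1), by condition, with the replicates as symbols and a black bar at the mean of the log values. Replicate 1 of Sox4 (2.81 to 9.53 CPM outside the 3-factor conditions) lies below replicates 2 and 3 there, and Sox11 does not show this split.

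Sox11 had nearly the same mean with Ngn3, 27.8 ± 12.5 CPM (SD, n = 17), as without, 27.0 ± 17.4 CPM (SD, n = 15). The fitted difference was -0.08 on the log2 scale (SE 0.30, 95% interval -0.66 to 0.50, edgeR adjusted p = 1), and its sign turned with DESeq2 or RLE scaling (0.01 for each). The interval leaves room for a change of up to 0.66 downward. In Ngn3 cells, 6SA against WT gave -0.69 (SE 0.41, adjusted p = 0.889). Condition means ran from 35.3 CPM in WT Pdx1 cells to 13.3 CPM in 6SA Ngn3+Pdx1+MafA cells, with all 11 neighbours overlapping. The closest genes were Pcdhb16 (r = 0.725), Pik3ip1 (0.694) and Vim (0.675).

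Sox11 was lower at the later passage. Within the 8 conditions that had both, it had 8.02 to 73.1 CPM in 16 samples at passage 2 (median 33.2) and 6.84 to 37.9 CPM in 8 samples at passage 5 (median 13.2), and the ranges overlapped. It fell by 1.20 on the log2 scale (SE 0.31, edgeR adjusted p = 0.0195), with 8.23% of all genes called and 5.07% called lower. The call was lost with all libraries (-0.93, adjusted p = 0.0685), without replicate 1 (-0.95, 0.0741) and without 6SA Ngn3+Pdx1 replicate 3 (-1.16, 0.0532). Passage 5 is replicate 3 in every condition, so passage cannot be told apart from that replicate.

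Genes described as SoxC targets moved in both directions with Ngn3, in a list written with earlier results of these data known. Of 6 tested, 3 rose and 3 fell in the mean over backgrounds, where 21.5% of all genes were called, with a median of 0.83 on the log2 scale against 0.07 over all genes. By background, 1 rose and 0 fell beside Pdx1 (1.49% of all genes called) and 3 rose and 0 fell beside MafA (4.67%). Beside both, 3 rose and 2 fell (17.8%). The neuronal cytoskeleton genes Tubb3 (6.71, adjusted p = 1.27e-08), Dcx (5.51, 2.87e-04) and Map2 (2.62, 3.68e-05) rose. Ezh2, a histone methyltransferase, fell by 1.23 (adjusted p = 5.70e-04), Tead2, a partner of YAP, fell by 0.95 (0.0133), and Sema3c, a secreted guidance factor, fell by 0.95 (0.0356). Of 26 transcription factors of endocrine differentiation, 25 were tested and 19 rose, with 0 lower and a fitted median of 6.83, among them Neurod1, Rfx6, St18 and Cbfa2t3.

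Among the SoxD genes, Sox13 was counted in every sample, from 1.43 to 24.2 CPM (median 8.32). Its level was 9.79 ± 6.68 CPM with Ngn3 (SD, n = 17) and 9.66 ± 3.33 CPM without (SD, n = 15). The fitted difference was -0.04 (SE 0.33, 95% interval -0.69 to 0.61, edgeR adjusted p = 1), and its sign turned with DESeq2 (0.04) or RLE scaling (0.04). WT Ngn3+Pdx1+MafA cells were the lowest condition, at 3.56, 4.54 and 5.58 CPM, and their range did not reach that of the next condition, WT Pdx1+MafA cells, at 8.81, 7.67 and 6.98 CPM. All 10 other neighbours in the order overlapped, up to 12.1 CPM in WT Ngn3+Pdx1 cells at 20.2, 5.73 and 10.5 CPM. The test of any difference among the 12 conditions did not call Sox13 (adjusted p = 1). The closest genes were Rbmx (r = 0.690), Wdr91 (0.650) and Foxred1 (0.649).

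Sox5 was near the limit of detection. It had counts in 19 of 32 samples and 3 counts or more in 17, with a maximum of 4.05 CPM in 6SA MafA replicate 2. In 6SA MafA cells it had 1.61, 4.05 and 0 CPM, and in WT Pdx1+MafA cells 1.61, 3.31 and 0 CPM. With Ngn3 the highest sample was WT Ngn3+MafA replicate 1, at 1.94 CPM, beside 0 in the other replicates of that condition. The means were 0.311 ± 0.503 CPM with Ngn3 (SD, n = 17) and 1.18 ± 1.27 CPM without (SD, n = 15), and the ranges overlapped. The fitted difference was -1.67 (SE 0.86, 95% interval -3.37 to 0.02, adjusted p = 0.196), and it passed only when WT Ngn3+MafA replicate 1 was left out (-2.63, adjusted p = 0.0458), among the 32 samples left out in turn. At passage 5, Sox5 had 2 counts in all, in 1 of 8 samples, against 180 counts in 12 of 16 samples at passage 2 in the same conditions. That difference did not pass in edgeR (adjusted p = 0.074) and passed in DESeq2 (0.00743). The closest genes were Plekhg2 (r = 0.674), Cdh6 (0.630) and Mrtfa (0.629).

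Sox6 had counts in 22 of 32 samples, 20 of them with 3 counts or more. Its highest condition was 6SA Ngn3+Pdx1+MafA, with 3.12 and 7.73 CPM in 2 samples. The other samples above 3 CPM were all replicate 3, at 4.94 CPM in WT Pdx1+MafA, 3.99 CPM in WT Ngn3+Pdx1+MafA, 3.71 CPM in 6SA Pdx1+MafA and 3.33 CPM in WT Ngn3+MafA cells. Replicate 2 was at 0 or under 3 counts in all conditions but 6SA Ngn3+Pdx1+MafA, at 7.73 CPM, and WT Pdx1+MafA, at 0.523 CPM. The means were 1.64 ± 2.04 CPM with Ngn3 (SD, n = 17) and 0.939 ± 1.45 CPM without (SD, n = 15). The fitted difference was 1.26 (SE 0.83, 95% interval -0.36 to 2.88, adjusted p = 0.348), and it ranged from 0.058 to 3.373 with samples left out. At passage 5 the median was 2.65 CPM over 8 samples, against 0.277 CPM over 16 at passage 2. The fitted passage difference was 2.28 (SE 0.96, edgeR adjusted p = 0.131), and it passed in DESeq2 (2.37, 0.0464). With samples left out it ranged from 1.244 to 4.298. The closest genes were Kcnn3 (r = 0.633), Ppp4r1l-ps (0.583) and Spon1 (0.583).

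Cartilage genes that the SoxD factors and Sox9 regulate were listed as a readout, 11 in all and 9 tested. In the mean over backgrounds, where 21.5% of all genes were called, 3 rose and 0 fell: the minor collagens Col9a2 (6.64, adjusted p = 1.12e-04), Col9a3 (4.33, 3.18e-04) and Col11a2 (4.08, 7.54e-04). The median of the list was 2.49 on the log2 scale, against 0.07 over all genes. By background, 0 were called beside Pdx1 (median 0.37, 1.49% of all genes called) and 0 beside MafA (median 0.23, 4.67%). Beside both, 4 rose (median 3.13, 17.8%).

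Sox21 was low but counted in all 32 samples, from 0.243 to 9.39 CPM (median 3.61). It had 2.79 and 8.66 CPM in WT Pdx1 cells, 3.96 and 9.25 CPM in WT MafA cells, and 4.75, 0.697 and 1.93 CPM in WT Pdx1+MafA cells. With Ngn3, WT cells had 4.02, 8.77 and 8.53 CPM beside Pdx1, 4.84, 4.83 and 1.66 CPM beside MafA, and 0.243, 0.439 and 7.71 CPM beside both. The order of levels ran from 7.11 CPM in WT Ngn3+Pdx1 cells to 2.11 CPM in 6SA Ngn3+Pdx1+MafA cells, at 3.87 and 0.347 CPM, and all 11 neighbours overlapped. The means were 4.30 ± 3.09 CPM with Ngn3 (SD, n = 17) and 3.80 ± 2.72 CPM without (SD, n = 15). The fitted difference was 0.07 (SE 0.49, 95% interval -0.88 to 1.02, adjusted p = 1). Sox21 was at 0 in a technical repeat in 4 of 17 samples with several repeats. The closest genes were Mbtd1 (r = 0.694), Cdv3 (0.673) and Marcks (0.668).

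**Figure D3:**
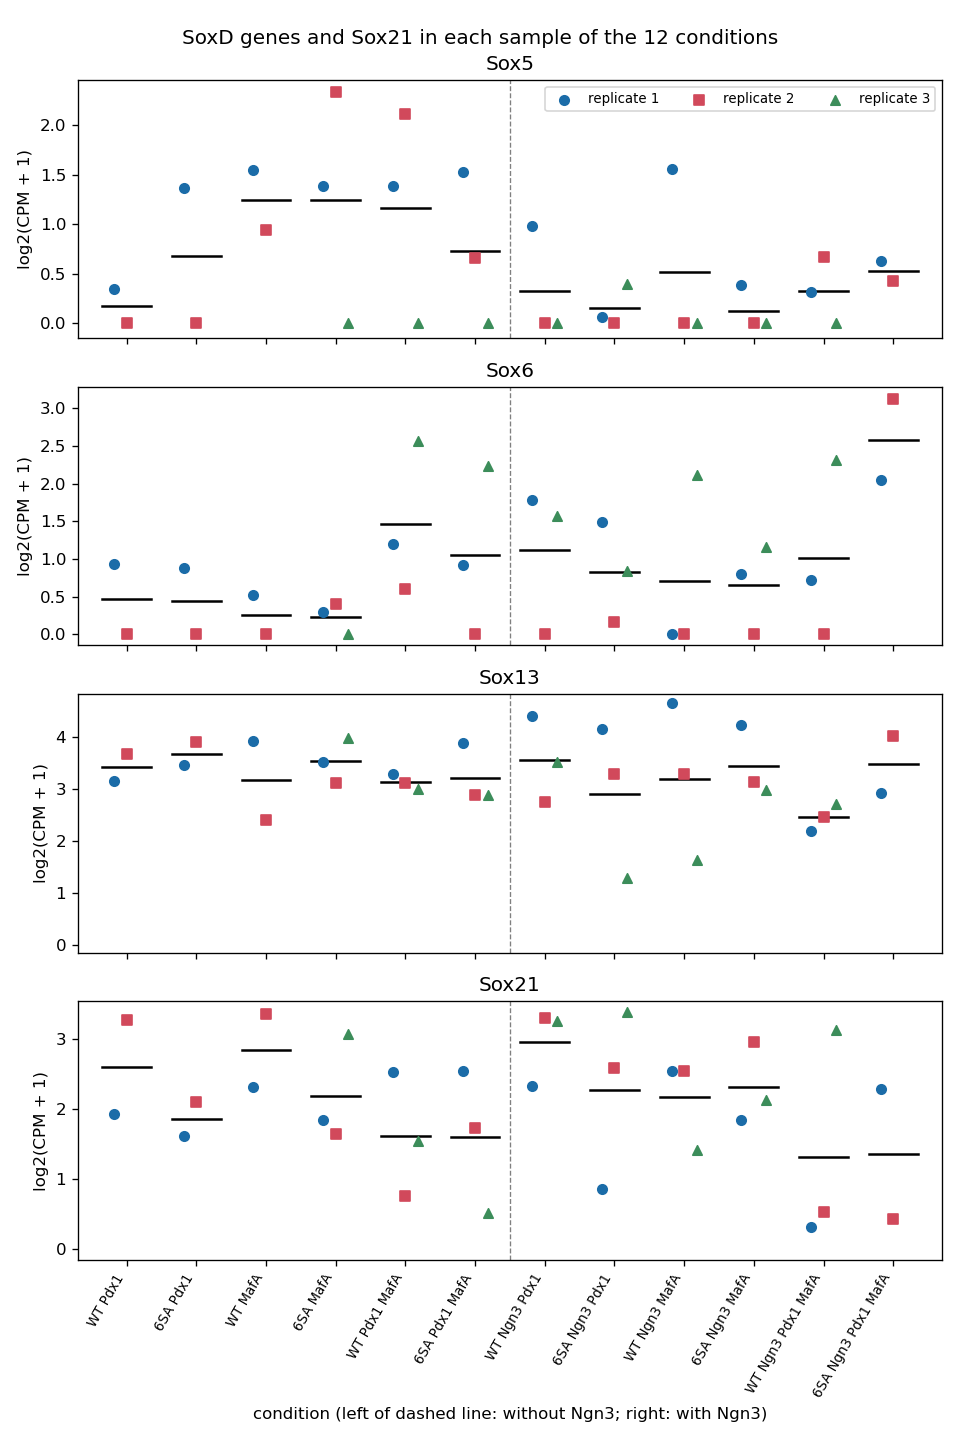
The SoxD genes Sox5, Sox6 and Sox13 and the SoxB2 gene Sox21 in each of the 32 samples as log2(CPM + 1), by condition, with the replicates as symbols and a black bar at the mean of the log values. Sox13 and Sox21 were counted in every sample, and Sox5 and Sox6 reached 0 on both sides of the dashed line.

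Sox2 was hardly detected at this depth. It had 16 counts over all 32 samples, in 6 of them, and reached 3 counts in 2: 5 counts in WT Pdx1 replicate 1 and 3 in 6SA Ngn3+MafA replicate 2. No fold between conditions is given. Of 10 gastric and squamous markers, 7 were tested, and in the mean over backgrounds 1 rose, Tff2, and 3 fell, Krt14, Gkn3 and Muc5ac, against 21.5% of all genes called and 10.5% called lower. By background, 0 were called beside Pdx1 (1.49% of all genes called) and 1 rose and 0 fell beside MafA (4.67%). Beside both, 0 rose and 2 fell (17.8%).

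**Figure D4:**
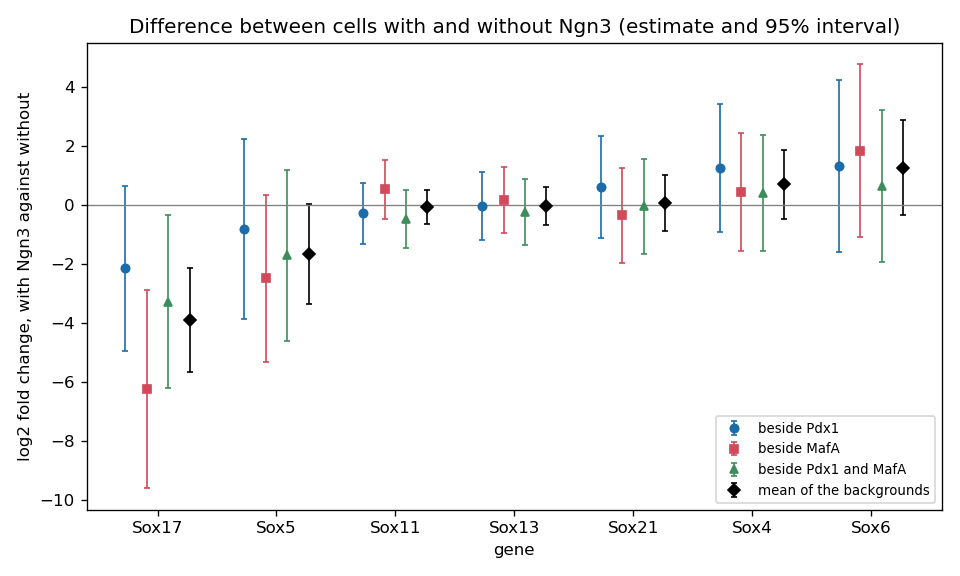
Log2 fold change of 7 Sox genes in cells with Ngn3 against cells without, beside Pdx1, MafA, both, and as the mean over backgrounds, with 95% intervals from the edgeR fit. For Sox17 the intervals beside MafA, beside both and of the mean lie below 0, with adjusted p = 0.0319, 0.131 and 0.00212.

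The comparisons other than those of Ngn3 and passage called 0 of the 8 members with edgeR. MafA added to Ngn3 and Pdx1 called 1.88% of all genes, Pdx1 added to Ngn3 and MafA 2.72%, and any difference among the 12 conditions 7.2%. In the last of these, Sox17 had an adjusted p of 0.189 in edgeR and was called by DESeq2 (0.0262), and before adjustment it alone of the members was under 0.05. In the other 2 comparisons 0 members were under 0.05 before adjustment, and DESeq2 called 0. The contrasts 6SA against WT in Ngn3 cells, the same in cells without Ngn3, Pdx1 against MafA without Ngn3, and the interaction of Ngn3 with culture each called 0.0% of genes with edgeR. At an unadjusted p under 0.05 they had 1422, 591, 675 and 647 genes, and DESeq2 called 26, 8, 24 and 5, with 0 members among them. The members at an unadjusted p under 0.05 there were 1, Sox17, in the first and 0 in the other 3.

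Of the 20 Sox genes, 14 were tested, and with Ngn3 1 rose and 2 fell, against 21.5% of all genes called, and with a median of 0.02 on the log2 scale against 0.07 over all genes. Sox7, the other SoxF gene with a measurable level, fell by 3.60 (SE 0.50, adjusted p = 5.03e-06). Sox12, the remaining SoxC gene, rose by 1.29 (SE 0.36, adjusted p = 0.0102), a call lost without replicate 1 and without replicate 2 (highest adjusted p = 0.272). Sox9 gave -0.18 (adjusted p = 0.929).

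Markers of cell types were counted beside these results in the Ngn3 comparison. Of 15 duct genes, 10 fell, among them Muc1, Car2 and Krt19, with a median of -1.23. Over all genes, 21.5% were called and 10.5% called lower. The summed level of the duct genes was 3200 to 24800 CPM with Ngn3 and 23100 to 70200 CPM without. Of 10 mesenchymal genes 7 were tested, of 8 acinar genes 2 and of 7 immune genes 3, and edgeR called 0 in each for the mean over backgrounds. Beside Pdx1 and MafA, where 17.8% of all genes were called, 1 acinar and 1 immune gene rose. Of 6 Schwann cell genes 5 were tested, with Ngfr higher and S100b lower. The part of these markers in the levels of the Sox genes was not tested.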

How the data were processed

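RNA was sequenced from pools of 50 sorted organoid cells. Per the submitters' processing notes, reads were aligned to mm10 with GSNAP and counted with HTSeq 0.5.3p3, and the authors deposited raw counts per gene and library, with technical repeats separate. Gene IDs were matched to symbols for 45229 of 46078 genes, and exon positions came from an annotation of GRCm38. Libraries with over 1000000 gene counts, spike-ins under 25% and over 10000 detected genes were kept (58 of 61), and repeats were summed. Rows without a feature (14.7% of all counts) and ambiguous rows (7.23%) stayed out.

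Tests took genes found in 5 or more libraries whose variance of log2(CPM + 1) exceeded 0.001, in 1 model of the 12 conditions with edgeR 4.0.16 in R 4.3.3 (TMM, trended dispersion, quasi-likelihood test, Benjamini-Hochberg threshold 0.05), and for passage with an added term. Alternatives were DESeq2 1.42.0, RLE size factors, filterByExpr, no gene filter, the replicate block with either tool, all libraries, the first technical repeat, no legacy setting and samples left out, which reused the dispersion trend of all samples. DESeq2 with the block was chosen after seeing the data. The main edgeR fit, edgeR with the replicate block and DESeq2 without it were also run on simulated counts. The passage model and the other alternatives were not. The 8 genes and all 11 gene lists were chosen with earlier results of these data known. All 8 genes are named, with at most 4 called genes of a list, by lowest adjusted p, except that all called SoxC targets and other Sox genes are given, and for genes with 3 counts in at least 50% of samples the 3 genes with the highest correlation among 11686 with a mean of at least 5 CPM.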

Additional observations from a re-analysis of the deposited data

Results flagged for a closer look

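Libraries left out for their low totals held Sox counts above the controls, which were the kept libraries of Pdx1+MafA cells from the same kind of culture, on plain-total CPM. In 6SA Ngn3+Pdx1+MafA cells, Sox4 had 219 CPM (53 counts) in repeat 2 of replicate 2 and 338 CPM (138 counts) in repeat 1 of replicate 3, and the highest control had 40.2 CPM. In WT Ngn3+Pdx1+MafA cells, repeat 1 of replicate 2 had 209 CPM of Sox4 (131 counts, highest control 78.8 CPM) and 6.39 CPM of Sox6 (4 counts, highest control 4.63 CPM). These libraries had 241563, 408733 and 625650 gene counts. Their shares of ambiguous reads were 19.7%, 24.9% and 17.0%, against 3.92% to 17.4% in the kept libraries. The parts of the low totals and of the ambiguous reads in these levels were not tested.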

How the results depend on the processing

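The Ngn3 effect on Sox17 kept its direction in all alternatives, and the calls it lost are given with its values. The numbers of members called changed as follows. For the mean Ngn3 effect it was 2 without a gene filter and with the replicate block in edgeR or DESeq2, and 0 to 2 with samples left out. Beside Pdx1 and MafA it was 1 without a gene filter, Sox17, and 1 with the block in either tool, Sox4. Beside MafA it was 0 to 1 with samples left out. For 6SA against WT Ngn3 it was 1 without a gene filter. For Pdx1 added to Ngn3 and MafA it was 2 with the DESeq2 block. For any difference among conditions it was 1 with DESeq2, without a gene filter or with the block, 3 with the DESeq2 block, and 0 to 1 with samples left out. For passage it was 3 with DESeq2 or without the legacy setting, 4 without a gene filter, 0 with all libraries and 1 to 3 with samples left out. The cause was not tested.

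The labels do not say that the replicate numbers pair the samples. Of 14 same-numbered pairs with and without Ngn3, 12 correlated at 0.127 to 0.756, and those of 6SA Pdx1+MafA cells at -0.423 and -0.361. With the replicate block, Sox4 gave 1.01 for the mean Ngn3 effect (adjusted p = 0.00842, DESeq2 1.10, 0.00101) and 1.86 beside Pdx1 and MafA (0.00688, DESeq2 2.01, 4.36e-04), and Sox17 gave -3.62 (2.92e-04).

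Signs turned for small effects of Ngn3. Sox11 gave 0.011 with DESeq2 and RLE scaling, 0.22 and 0.13 with the block in DESeq2 and edgeR, 0.25 with the first technical repeat and -0.24 to 0.28 with samples left out. Sox13 gave 0.036 with DESeq2, 0.023 with the DESeq2 block, 0.035 with RLE scaling and -0.23 to 0.16 with samples left out. Sox21 gave -0.008 and -0.075 with the block in DESeq2 and edgeR, -0.17 with the first technical repeat and -0.46 to 0.37 with samples left out. Without a gene filter, the mean Ngn3 effect on Sox4 passed (0.71, adjusted p = 0.0123). Sox4 beside Pdx1 and MafA ranged from -0.11 to 1.01 and turned without WT Ngn3+Pdx1+MafA replicate 3.

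Genes called by DESeq2, without a gene filter and with the block numbered 939, 1273 and 1011 beside Pdx1 (358 in edgeR), 1945, 2077 and 2123 beside MafA (1121), 1371, 1454 and 1188 for MafA added (451), 1948, 1930 and 2038 for Pdx1 added (654), 3359, 4446 and 3211 for any difference (1729) and 273, 768 and 63 for the interaction with background (8). Passage gave 4142 with DESeq2 and 3418 without a gene filter (1975). For the mean Ngn3 effect DESeq2 called 5865 genes (5168 in edgeR), and beside Pdx1 and MafA 5198 (4279). Without a gene filter, 239 genes were called for 6SA against WT Ngn3. At 3 counts per sample, differences in Sox2, Sox5 and Sox6 are limited by depth.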
